A study of Homo sapiens with 6 samples.

Results

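Replication-dependent and variant histone genes were examined among the H3K27ac regions that the study listed as changed by BET inhibition in multiple myeloma cells. H3K27ac, acetylation of lysine 27 of histone H3 and a mark of active promoters and enhancers, had been profiled by chromatin immunoprecipitation and sequencing. The cells were the human myeloma (malignant plasma cell) lines KMS-11, KMS-12 and RPMI8226, all labelled as wild type in genotype. In each line, 1 sample treated with 1 µM JQ1 for 72 h was set against 1 sample given the solvent DMSO, so 6 samples were used here, with no replicate within a line. JQ1 is a small molecule that keeps BET bromodomain proteins from binding acetylated lysines.

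Members were protein coding RefSeq genes whose symbols begin with H1-, H2A, H2B, H3C, H4C, H3- or H4-, 92 in all. A listed region was assigned to a member when it overlapped the gene or lay within 1 kb of either end of it. This gave 16 of the 838 listed regions, at 23 of the 92 genes. Each region carries 1 log2 fold change per line in the authors' deposited table, read here as JQ1 over DMSO, so that a negative value means less H3K27ac in JQ1 cells. The file states neither the base of the logarithm nor the direction. The table holds no counts, so depth is unknown, and no fold change has an error or a test. All 838 regions were below 0 in the 3 lines and below -0.5 in at least 2 of them, which reads as the rule that selected the list. Direction is therefore no finding here, and a histone gene without a listed region either missed that selection or was not measured. Levels are not in the table, so the plasma cell identity of the lines could not be checked. Of 9 plasma cell markers, IRF4, XBP1 and MZB1 had a listed region, and of the 5 B cell, 3 T and NK cell and 3 myeloid markers, 0 had one. Over all protein coding genes the share was 4.38%, so lists this short would often hold no region, and the counts of 0 are no evidence on lineage.

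Histones are the proteins around which DNA is wound, with H2A, H2B, H3 and H4 in the nucleosome core and H1 on the linker DNA. Replication-dependent histone genes are short, mostly lack introns, sit together in clusters and are transcribed in S phase, when their products package newly made DNA. Many H2A and H2B genes stand head to head and share a promoter, and H2B promoters are known for an octamer element bound by the factor encoded by POU2F1. Variant histones such as those of H3-3A, H3-3B and H2AX are made from genes outside the clusters and are also produced outside S phase.

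The promoters below belong to members on which the results turn. They are RefSeq windows of build GRCh38.p14, 250 bases before to 50 after the gene start, written 5′ to 3′ along the gene. Capitals mark matches on either strand to the octamer ATTTGCAT, the CCAAT box, the TATA box TATAAA and the E2F form TTTCGCGC, which do not overlap one another in these 6 windows. The first, H2BC7 (chr6:26199266-26199565, plus strand), also holds the start of the divergent gene H2AC7 and lies in the region with the lowest KMS-11 value of the 16. H2BC21 (chr1:149886633-149886932, minus strand) is the counterpart on chromosome 1, with H2AC20 on its other side. H1-4 (chr6:26156079-26156378, plus strand) encodes a linker histone. H4C5 (chr6:26204360-26204659, plus strand) held none of the 4 motifs. H2AC19 (chr1:149850811-149851110, plus strand) has a near-identical copy at H2AC18. H3-3B (chr17:75779730-75780029, minus strand) is a variant gene that also carried an octamer.
H2BC7: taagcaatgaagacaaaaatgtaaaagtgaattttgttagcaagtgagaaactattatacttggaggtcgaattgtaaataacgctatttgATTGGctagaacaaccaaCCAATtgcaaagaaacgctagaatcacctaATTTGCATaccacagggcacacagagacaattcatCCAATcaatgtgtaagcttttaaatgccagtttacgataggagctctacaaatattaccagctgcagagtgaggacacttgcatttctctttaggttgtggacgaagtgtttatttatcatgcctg
H2BC21: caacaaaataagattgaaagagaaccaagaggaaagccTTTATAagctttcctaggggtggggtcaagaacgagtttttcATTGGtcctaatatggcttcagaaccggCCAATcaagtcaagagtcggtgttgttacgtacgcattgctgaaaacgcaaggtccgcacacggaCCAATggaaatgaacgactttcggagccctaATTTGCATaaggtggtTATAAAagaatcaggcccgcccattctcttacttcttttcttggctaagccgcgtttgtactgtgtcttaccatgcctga
H1-4: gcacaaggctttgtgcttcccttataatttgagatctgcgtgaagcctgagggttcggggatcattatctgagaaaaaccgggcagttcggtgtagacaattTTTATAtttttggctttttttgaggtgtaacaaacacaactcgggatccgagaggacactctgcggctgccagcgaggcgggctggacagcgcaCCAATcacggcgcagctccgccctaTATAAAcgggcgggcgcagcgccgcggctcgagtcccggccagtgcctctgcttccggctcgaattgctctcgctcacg
H4C5: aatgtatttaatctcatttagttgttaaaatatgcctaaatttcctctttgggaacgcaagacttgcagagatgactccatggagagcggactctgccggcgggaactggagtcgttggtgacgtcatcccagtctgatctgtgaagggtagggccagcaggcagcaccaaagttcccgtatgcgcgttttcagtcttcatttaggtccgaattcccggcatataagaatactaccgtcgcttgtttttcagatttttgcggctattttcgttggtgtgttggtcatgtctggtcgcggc
H2AC19: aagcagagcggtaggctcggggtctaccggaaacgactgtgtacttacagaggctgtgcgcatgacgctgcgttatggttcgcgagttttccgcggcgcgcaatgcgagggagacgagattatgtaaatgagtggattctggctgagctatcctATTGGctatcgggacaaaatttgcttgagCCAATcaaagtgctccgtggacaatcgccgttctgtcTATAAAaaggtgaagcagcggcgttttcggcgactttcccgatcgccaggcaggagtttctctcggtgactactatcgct
H3-3B: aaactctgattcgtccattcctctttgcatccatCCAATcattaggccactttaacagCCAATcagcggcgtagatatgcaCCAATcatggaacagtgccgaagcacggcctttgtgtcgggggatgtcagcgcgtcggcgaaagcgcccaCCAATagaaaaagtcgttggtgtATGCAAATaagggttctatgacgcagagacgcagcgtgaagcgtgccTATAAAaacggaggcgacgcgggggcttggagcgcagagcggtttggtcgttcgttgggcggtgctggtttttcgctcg

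Listed regions were found at 25.0% of histone genes, against 4.38% of the 20033 protein coding genes placed on the same rule. The share was 63.6% in the chromosome 1 cluster (7 of 11 genes), 23.6% in the chromosome 6 cluster (13 of 55) and 11.5% elsewhere (3 of 26). By type, 9 of 26 H2A genes, 7 of 23 H2B genes, 2 of 10 H1 genes, 3 of 18 H3 genes and 2 of 15 H4 genes had one. Genes of a cluster share regions, and the 23 genes rest on 16 regions, so these shares count neighbours more than once.

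**Figure D1:**
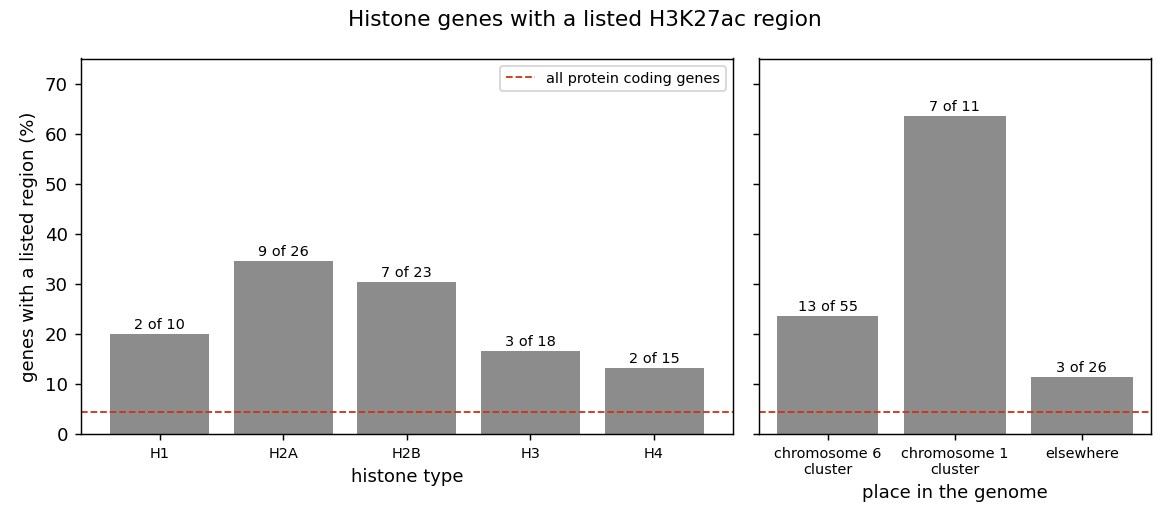
Percent of histone genes with a listed H3K27ac region, by histone type (left) and by place in the genome (right), with the number of genes above each bar. The dashed line is the 4.38% of all protein coding genes; H2A (34.6%) and H2B (30.4%) stand highest by type, and the chromosome 1 cluster (63.6%) by place.

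Within the chromosome 6 cluster the listed genes were unevenly placed. From 25726063 to 26285534 lay 34 members, 11 of them listed through 7 regions. From 27132316 to 27147562 lay 5 members, of which H2BC12 and H2AC12 shared 1 region. The third stretch, 27807479 to 27893891, held 16 members and 0 listed regions. At the 4.38% of all protein coding genes, 16 genes may hold no region, so this 0 is a description. Just inside the 1 kb limit were the 2 regions assigned to H2BC5, at 678 and 684 bp. Just outside it on chromosome 1 were H3C15 at 1923 bp and H3C14 at 2007 bp, and on chromosome 6 H4C6 at 4842 bp. One further listed region within 50 kb of the chromosome 6 cluster (26321664 to 26322628) lay at the pseudogene H3C9P and the tRNA gene TRR-TCG2-1. For it, the authors' deposited table gave -0.37 for KMS-11, -0.62 for KMS-12 and -0.70 for RPMI8226. KMS-11 was thus the line nearest 0 there, unlike at the histone genes of this cluster.

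At the 16 histone gene regions, the authors' deposited table gave a median log2 fold change of -1.09 for KMS-11, -0.47 for KMS-12 and -0.71 for RPMI8226. Over all 838 regions the medians were -0.66 for KMS-11, -0.69 for KMS-12 and -0.56 for RPMI8226. All 16 were below -0.5 in KMS-11, where 83.4% of listed regions were. In KMS-12, 8 of 16 were below -0.5, against 77.7% of all listed regions. In RPMI8226, 11 of 16 (68.8%) were, against 64.3%. Values below -1 were found for 9 histone gene regions in KMS-11 (56.2%, against 13.5% of all listed regions), 0 in KMS-12 (against 21.2%) and 2 in RPMI8226 (12.5%, against 4.42%). KMS-11 was the lowest of the 3 lines in 10 of 16 regions (62.5%, against 33.8%), KMS-12 in 3 (18.8%, against 44.6%) and RPMI8226 in 3 (18.8%, against 21.6%).

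The pairs of lines that put the histone regions on the list follow from the counts above. All 16 were below -0.5 in KMS-11 and the list asks for at least 2 lines, so the pairs are no separate result. KMS-11 with RPMI8226, but not KMS-12, was below -0.5 in 8 of 16 regions, against 22.3% of all listed regions. KMS-11 with KMS-12 alone was below it in 5 (31.2%, against 35.7%). KMS-12 with RPMI8226 alone accounted for 0 of the 16, against 16.6%. All 3 lines were below -0.5 in 3 regions (18.8%, against 25.4%). No test was made of these shares, since the list was selected on the same values and neighbouring genes are not independent.

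**Figure D2:**
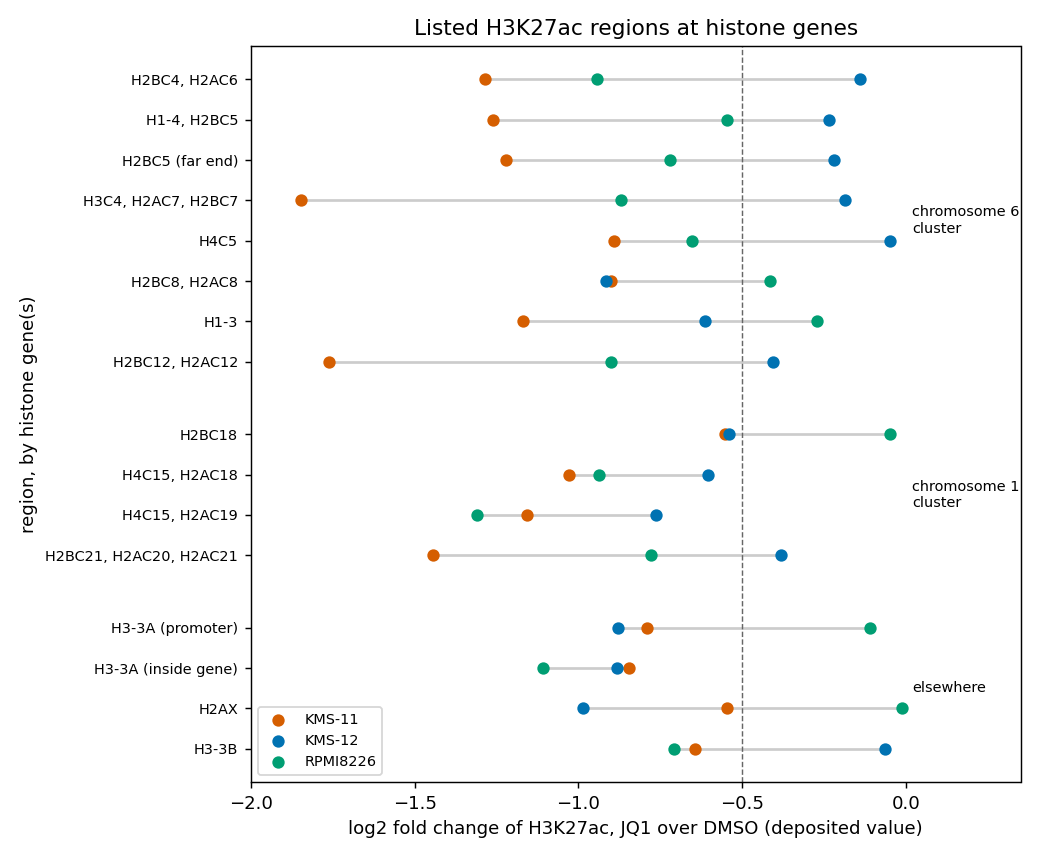
Log2 fold change of H3K27ac, JQ1 over DMSO, for each of the 16 regions at histone genes, as deposited; each point is 1 line and the grey bar joins the lowest and highest line. The dashed line is -0.5. In the chromosome 6 cluster KMS-12 lies right of -0.5 in 6 of 8 regions while KMS-11 lies between -1.85 and -0.89.

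The widest separation of lines was seen at H2A and H2B genes that share a promoter on chromosome 6. For the region over H2AC7, H2BC7 and the longer transcript of H3C4 (26198299 to 26200193), the authors' deposited table gave -1.85 for KMS-11, -0.18 for KMS-12 and -0.87 for RPMI8226. On the log2 reading, JQ1 cells had 72.2% less signal in KMS-11 and 45.3% less in RPMI8226. The KMS-11 value ranked 3 of 838 from the lowest and the KMS-12 value 781. Over H2BC12 and H2AC12 (27145360 to 27147642), the authors' deposited table gave -1.76 for KMS-11, -0.41 for KMS-12 and -0.90 for RPMI8226. Over H2BC4 and H2AC6 (26123259 to 26125803), the authors' deposited table gave -1.28 for KMS-11, -0.14 for KMS-12 and -0.94 for RPMI8226. In these 3 regions KMS-11 was lowest, RPMI8226 intermediate and KMS-12 above -0.5. That order was not particular to them, as it also held at H1-4, H4C5, the region beyond the far end of H2BC5, and H2BC21 on chromosome 1.

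The H2BC8 and H2AC8 pair differed from these. Its region (26215823 to 26216505) overlapped H2BC8, from 183 to 865 bp downstream of the gene start, and lay 416 bp from H2AC8. For it, the authors' deposited table gave -0.90 for KMS-11, -0.91 for KMS-12 and -0.42 for RPMI8226. KMS-12 minus KMS-11 was thus -0.01 here, against 1.66 at H2AC7 and H2BC7.

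Linker histone genes were represented by H1-4 and H1-3, 2 of the 6 H1 genes of the chromosome 6 cluster. At H1-4 (26156043 to 26157443), the authors' deposited table gave -1.26 for KMS-11, -0.23 for KMS-12 and -0.55 for RPMI8226. At H1-3 (26233898 to 26235551), it gave -1.17 for KMS-11, -0.61 for KMS-12 and -0.27 for RPMI8226. KMS-11 was lowest at both, while the other lines changed places: RPMI8226 was past -0.5 at H1-4 and KMS-12 at H1-3.

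Of the core H4 genes of chromosome 6, H4C5 was the 1 listed among 12. For its region (26204567 to 26206657), the authors' deposited table gave -0.89 for KMS-11, -0.05 for KMS-12 and -0.65 for RPMI8226, the KMS-12 value being 3.29% less signal. For the other chromosome 6 region, 684 bp beyond the far end of H2BC5 (26172033 to 26173385), it gave -1.22 for KMS-11, -0.22 for KMS-12 and -0.72 for RPMI8226. That region lay 13912 bp from the H2BC5 start and held the start of the lncRNA gene H2BC6-AS1, so it need not report on H2BC5. Among H3 genes of the cluster, H3C4 was the 1 listed of 10, through the promoter it shares with H2AC7.

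In the chromosome 1 cluster, KMS-12 was nearer to KMS-11 at H2AC18, H2AC19 and H2BC18, whose regions held no histone gene start. At H2BC21, the 1 region of this cluster with a start, KMS-12 exceeded KMS-11 by 1.06, rank 9 of 838. Over H2BC21, H2AC20 and H2AC21 lay the widest of the 16 regions, at 3459 bp (149885777 to 149889235), for which the authors' deposited table gave -1.44 for KMS-11, -0.38 for KMS-12 and -0.78 for RPMI8226. This is the same order of lines as at the shared promoters of chromosome 6. The regions at H2AC18 (149843215 to 149844281) and H2AC19 (149849364 to 149850685) were below -0.5 in every line. At H2AC18, the authors' deposited table gave -1.03 for KMS-11, -0.60 for KMS-12 and -0.94 for RPMI8226. At H2AC19 it gave -1.16 for KMS-11, -0.76 for KMS-12 and -1.31 for RPMI8226. The H2AC19 value of RPMI8226 ranked 6 of 838 in that line.

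H2AC18 and H2AC19 are copies of each other, and their promoter windows shared an unbroken run of 299 bases. Their regions lay upstream of the gene starts, at -1531 to -465 bp relative to that of H2AC18 and -1697 to -376 bp relative to that of H2AC19, at the pseudogenes H2BC19P and H2BC20P. Both are also assigned to H4C15, whose RefSeq model is long, but its start lay 10474 bp or more from either. The H4C15 promoter window was identical over 300 bases to that of H4C14, whose nearest listed region was 10163 bp away. The sources used here do not say how reads common to copies were handled, so the 2 regions may not be separate measurements. Of the 83 members with a promoter window, 13 had another member's window at 90% identity or more, and 3 of those 13 were listed, namely H2AC18, H2AC19 and H4C15. The median closest identity was 59.7%, so most members were distinct in this window.

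The remaining chromosome 1 cluster region overlapped the long H2BC18 transcript and also FCGR1A and LOC124904411 (149792586 to 149793085). For it, the authors' deposited table gave -0.55 for KMS-11, -0.54 for KMS-12 and -0.05 for RPMI8226, and its mean over the lines ranked 836 of 838. It was 19285 bp downstream of the H2BC18 start.

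Variant genes gave 4 regions at 3 genes, H3-3A, H3-3B and H2AX, of 23 members with variant names. KMS-11 was the lowest line in 0 of these 4, against 10 of the 12 regions in the clusters and 33.8% of all listed regions, and with 4 regions a count of 0 does not set the variant genes apart from the list. As medians of the 4 regions, the authors' deposited table gave -0.72 for KMS-11, -0.88 for KMS-12 and -0.41 for RPMI8226. For the 12 cluster regions the medians were -1.19 for KMS-11, -0.39 for KMS-12 and -0.75 for RPMI8226.

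H3-3A, which encodes the replacement histone H3 variant, lies on chromosome 1 outside the cluster and had 2 regions with 358 bases between them. For the region over its first starts, also within 1 kb of the lncRNA gene H3-3A-DT (226061621 to 226062396), the authors' deposited table gave -0.79 for KMS-11, -0.88 for KMS-12 and -0.11 for RPMI8226. For the region downstream of all starts in the promoter table (226062755 to 226063800), it gave -0.85 for KMS-11, -0.88 for KMS-12 and -1.11 for RPMI8226. The values of KMS-11 and KMS-12 were close at these neighbours, whereas RPMI8226 had 7.34% less signal in JQ1 cells at the upstream region and 53.6% less at the downstream one. At H3-3B, which encodes the same protein on chromosome 17 (75778816 to 75779853), the authors' deposited table gave -0.64 for KMS-11, -0.06 for KMS-12 and -0.71 for RPMI8226. Here KMS-12 was the line nearest 0.

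H2AX encodes the H2A variant phosphorylated at DNA breaks. Its region (chromosome 11, 119093968 to 119095411) began 54 bp downstream of its start, and the authors' deposited table gave -0.55 for KMS-11, -0.98 for KMS-12 and -0.01 for RPMI8226. The same region overlapped DPAGT1, so it cannot be given to H2AX alone. The other variant members, H2AZ1, H2AZ2, H1-10 and H2AJ among them, had no listed region within 1 kb.

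**Figure D3:**
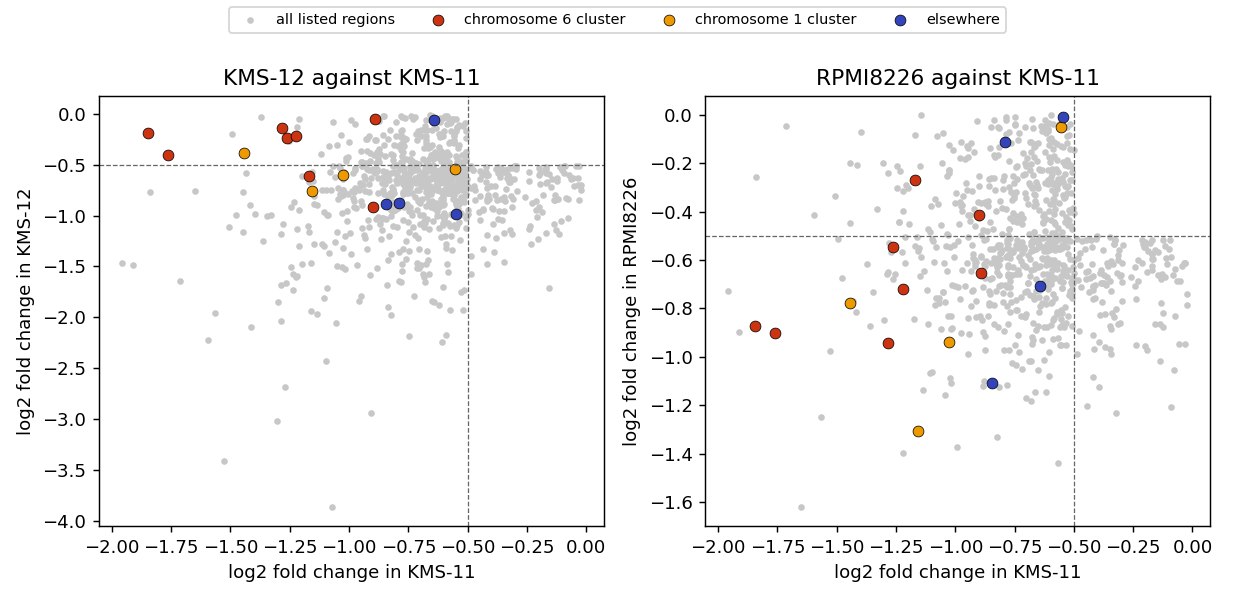
Log2 fold change in KMS-12 (left) and RPMI8226 (right) against KMS-11 for all 838 listed regions (grey) and the 16 at histone genes (coloured by place); dashed lines are at -0.5. Most regions of the chromosome 6 cluster sit at the upper left of the first panel, low in KMS-11 and near 0 in KMS-12, and lie lower in the second panel.

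The difference between KMS-12 and KMS-11 was then read region by region. In the authors' deposited table, KMS-12 exceeded KMS-11 by more than 1 in 11 of 838 regions (1.31%), and 6 of the 11 were at histone genes (37.5% of the 16). The H2AC7 region had the largest such difference of the list and the H2BC12 region the next. H2BC4, H2BC21, H1-4 and the far end of H2BC5 ranked 6, 9, 10 and 11. This measure was chosen after the values were seen. Among regions below -1 in KMS-11, KMS-12 was not below -0.5 in 6 of 9 at histone genes (66.7%), against 13 of 104 elsewhere (12.5%). The median KMS-12 value of the regions below -1 in KMS-11 was -0.38 at histone genes and -0.99 elsewhere in the authors' deposited table. Those 6 are the same regions that differed by more than 1, so the comparison restates that count. It was not planned beforehand either.

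KMS-12 values also differed by whether a region held a histone gene start. Of the 16 regions, 9 held the start of at least 1 member and 7 did not. KMS-12 was not below -0.5 in 7 of the 9 (77.8%) and in 1 of the 7 (14.3%). The start regions that were below -0.5 in KMS-12 were those of H1-3 (-0.61) and the upstream H3-3A region (-0.88). Among the 7 without a start, the exception was the H2BC5 region with the H2BC6-AS1 start. As medians of the 9 start regions, the authors' deposited table gave -1.26 for KMS-11, -0.23 for KMS-12 and -0.71 for RPMI8226. For the 7 others it gave -0.90 for KMS-11, -0.76 for KMS-12 and -0.72 for RPMI8226. Those 7 are not all away from promoters. The second H3-3A region began 39 bp downstream of a start and the H2AX region 54 bp, with KMS-12 at -0.88 and -0.98. Regions with a start were also wider, with a median of 1895 bp against 1067 bp. Over the whole list, KMS-12 was not below -0.5 in 25.5% of the 372 regions that held a protein coding gene start and in 19.7% of the 466 that did not. The division was made after the values were seen. Of the 9 start regions, 6 lie in the chromosome 6 cluster, 1 in the chromosome 1 cluster and 2 elsewhere. Regions with and without a start occur in each place, but they are too few to separate start from place.

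**Figure D4:**
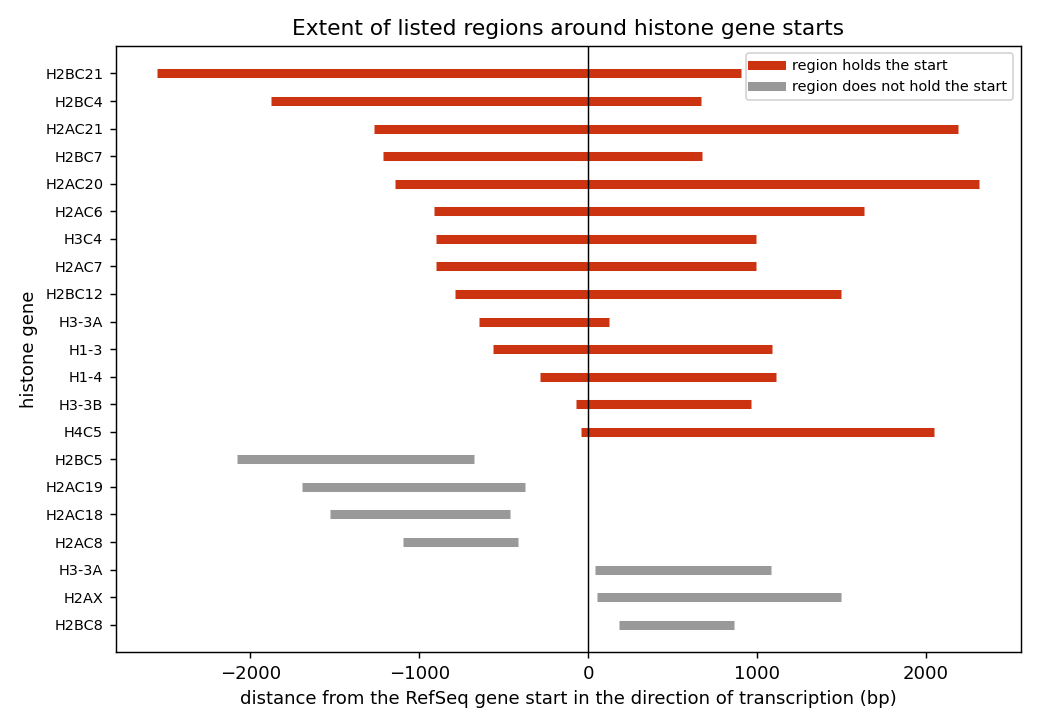
Extent of the listed regions around the nearest RefSeq start of each histone gene, in base pairs along the direction of transcription (0 is the start), for regions within 5 kb. Regions at 14 genes hold the start (red), and those of H2BC5, H2AC19, H2AC18, H2AC8, H2BC8, H2AX and the second H3-3A region do not (grey).

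The head-to-head arrangement seen in the H2BC7 and H2BC21 windows printed above was counted over all members with a strand. There were 11 H2A and H2B pairs with starts 194 to 248 bp apart, and 3 of them had a listed region over both starts, namely H2AC7 with H2BC7, H2BC4 with H2AC6 and H2BC21 with H2AC20. Head-to-head pairs of other genes were not counted, so this share has no background. H2AC12, which shares a region with H2BC12, has no window in the promoter table. At all 3 pairs KMS-11 was below -1 and KMS-12 above -0.5. Their regions are among the 6 described above, so this is no separate result. Over the whole list, KMS-12 was not below -0.5 in 19 of the 113 regions below -1 in KMS-11 (16.8%).

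The octamer ATTTGCAT was present on either strand in 13 of 22 listed members with a window (59.1%), in 14 of 61 other histone genes (23.0%) and in 2.22% of 15842 protein coding genes. Because divergent windows overlap, the 13 genes rest on 8 distinct octamers and the 14 on 10. Among replication-dependent names alone, 12 of 19 listed members (63.2%) and 14 of 45 others (31.1%) held it. H2A and H2B genes made up 15 of the 22 listed members with a window, and 11 of those 15 held it. Unlisted H2A and H2B genes were not counted apart, so these shares do not separate listing from histone type. In the H2BC7 window the first base of the octamer lay at -111 relative to the start, in that of H2BC21 at -46 and in that of H3-3B at -76, there on the opposite strand. The CCAAT box was present in 90.9% of listed members, 85.2% of other histone genes and 42.1% of protein coding genes. TATAAA was present in 72.7%, 55.7% and 12.4%, and TTTCGCGC in 9.09%, 16.4% and 0.941%. A match describes the letters of the window and not a bound site.

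Genes that act on histone genes or histones were counted in the same way. Of 33 genes for the histone locus body, histone promoter factors and histone mRNA processing, 4 were listed (12.1%, against 4.38% of protein coding genes). At POU2F1, the octamer factor, the authors' deposited table gave -0.59 for KMS-11, -0.53 for KMS-12 and -0.25 for RPMI8226. At YY1, a promoter factor, it gave -0.67 for KMS-11, -0.22 for KMS-12 and -0.52 for RPMI8226. At 555 bp from SNRPD3, a core protein of small ribonucleoproteins, it gave -0.53 for KMS-11, -0.48 for KMS-12 and -0.52 for RPMI8226. At 962 bp from E2F1, an S phase regulator, it gave -0.55 for KMS-11, -0.76 for KMS-12 and -0.20 for RPMI8226. None of the 4 was below -0.5 in all 3 lines. Listed regions were found at 0 of 30 histone chaperones and exchange factors, 0 of 21 S phase and replication genes, 0 of 14 acetylation enzymes and BET readers, and 0 of CENPA, MACROH2A1 and MACROH2A2, histone genes that the symbols do not take in. At 4.38%, lists of this size may hold no region, so the counts of 0 are descriptions.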

How the data were processed

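H3K27ac was profiled in 6 samples, 1 per line and treatment. The authors deposited 1 table of 838 regions with the number of lines in common and 1 log2 fold change per line. DESeq2, MACS2, hg38 and GRCh38.p13 are named without a role in the submitters' processing notes, while the sources used here do not give aligner, settings or normalization. The log2 scale is inferred from DESeq2, per the labels' tool list, since the file headers say only LFC. The deposited lines-in-common column matched the count of lines below -0.5 in all 838 regions.

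Coordinates are as deposited (hg38), and genes were RefSeq genes of GRCh38.p14 (pandas 2.3.3, Python 3.11.15). All 55 members on chromosome 6 are called its cluster, in 3 stretches parted by gaps over 500 kb, and the chromosome 1 cluster leaves out H3-3A. Gene starts came from the RefSeq promoter table, which held 83 of 92 members. Window identity is the share of matching bases in a global alignment (Biopython 1.88). Assignment, motif search and identity were checked on simulated data. No test was run, because the table has no replicate and was selected on its own values. Every region at a member and every listed member of the related gene lists was named. The members and lists were chosen with earlier results of these data known.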

Additional observations from a re-analysis of the deposited data

How the results depend on the processing

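Assignment by gene body overlap alone gave 14 regions and 19 genes. Limits of 2.5 and 5 kb kept 16 regions and gave 25 and 26 genes, with 3.90%, 4.67% and 5.10% of protein coding genes at the 3 settings. Adding CENPA, MACROH2A1 and MACROH2A2 left 23 genes. Requiring a gene start inside the region, chosen after seeing the data, left 9 regions and 14 genes, with medians of -1.26 in KMS-11 and -0.23 in KMS-12. Counting each gene once moved the KMS-11 median to -1.24, and replication-dependent names on chromosomes 6 and 1 alone gave -1.19. Counting the H2AC18 and H2AC19 regions once, also chosen after seeing the data, gave medians of -1.09, -0.41 and -0.71. With a threshold of -1 in place of -0.5, 9 regions passed in KMS-11, 0 in KMS-12, 2 in RPMI8226 and 0 in all lines. The 3 regions past -0.5 in all lines became 11 without KMS-12 and 8 without RPMI8226, and stayed at 3 without KMS-11. The same removals left 47.7%, 61.1% and 42.0% of all listed regions. The histone counts follow from those per line, since all 16 regions were below -0.5 in KMS-11. Of 40 alternative values, 12 moved and 28 stayed within the tolerance, which was a shift under 0.1 for medians, since there is no replicate spread, and a ratio of up to 1.5 for counts and percents. The table gives neither depth nor error for any fold change.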
